A study of Mus musculus with 6 samples.

Results

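In all, 10 purinergic genes were examined in mouse leukaemic pre-B cells: 4 P2X receptors (P2rx1, P2rx3, P2rx4 and P2rx7), 4 receptors named P2Y (P2ry10, P2ry12, P2ry13 and P2ry14) and 2 ectonucleotidases (Entpd1 and Nt5e). They are 10 of 19938 genes named by 1 symbol on the array, and each is given by its probe set, or by the brighter one where there are 2, which applied to P2rx3. The genes were chosen by family name after P2rx3 and P2ry13 had been seen among the larger differences between the groups compared here. Their differences between groups are therefore a description, not a test, and no p-value is printed for them. Whether a gene of the 10 passed a threshold below, in the main fit or in others, is likewise description and not support. RNA came from BCR-ABL1 transformed pre-B cells of C57BL/6 mice, a model of Philadelphia chromosome-positive acute lymphoblastic leukaemia, in which every sample carried Inpp5d fl/fl alleles. Inpp5d encodes SHIP1, a lipid phosphatase that limits PI3K signalling. On 3 arrays the cells had been transduced with PMIP-CRE-ERT2, a Cre recombinase that tamoxifen switches on, and on 3 with PMIP-ERT2, which has the tamoxifen-binding domain without Cre. Both groups received 4OH-Tamoxifen at 0.5 µM for 2 days, and RNA was prepared from cells resistant to Puromycin. No arm with Cre in cells without floxed alleles is analysed here, so Cre activity and loss of Inpp5d cannot be told apart. The labels do not state separate cultures, so errors and p-values cover only how far these samples lie apart, and that spread may be technical.

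Purinergic signalling starts when ATP, ADP or UTP leaves a cell. P2X receptors are trimeric cation channels opened by ATP, whereas P2Y receptors are coupled to G proteins and respond to different nucleotides. P2Y12 and P2Y13 respond to ADP and P2Y14 to UDP-sugars, while P2Y10, a P2Y receptor by name, responds to lysophospholipids. CD39, encoded by Entpd1, removes phosphates from ATP and ADP, and CD73, encoded by Nt5e, converts the resulting AMP to adenosine. Lymphocytes use these receptors and enzymes to sense injury and to dampen responses.

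Promoter sequence was available from RefSeq (GRCm38.p6) for 9 of the 10 genes, as 15 start sites. The 250 bases before the start site are shown for 3 of them. P2ry13 and its neighbour P2ry12 lie side by side, the first called lower and the second not called, and P2ry10 was the other receptor gene called lower. Capitals mark matches, on either strand, to 6 short motifs. The motifs were GTAAACA (FOXO core), TTCNNNGAA (STAT palindrome), GAGGAA (PU.1 core), CAGCTG (E-box), CCCNNGGG (EBF1 core) and TGANTCA (AP-1).
P2ry13 (chr3:59210883-59211132, minus strand): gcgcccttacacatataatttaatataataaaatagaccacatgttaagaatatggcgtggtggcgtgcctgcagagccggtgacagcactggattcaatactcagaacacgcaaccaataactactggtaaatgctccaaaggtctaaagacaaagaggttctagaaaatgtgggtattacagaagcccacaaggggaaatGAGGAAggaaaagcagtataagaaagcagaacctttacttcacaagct
P2ry12 (chr3:59262986-59263235, minus strand): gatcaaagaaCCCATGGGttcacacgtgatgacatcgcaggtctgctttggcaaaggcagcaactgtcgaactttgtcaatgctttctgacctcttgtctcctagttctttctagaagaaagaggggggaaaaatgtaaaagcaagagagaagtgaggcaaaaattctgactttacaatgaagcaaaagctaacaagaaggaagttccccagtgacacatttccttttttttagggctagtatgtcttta
P2ry10 (chrX:107088242-107088491, plus strand): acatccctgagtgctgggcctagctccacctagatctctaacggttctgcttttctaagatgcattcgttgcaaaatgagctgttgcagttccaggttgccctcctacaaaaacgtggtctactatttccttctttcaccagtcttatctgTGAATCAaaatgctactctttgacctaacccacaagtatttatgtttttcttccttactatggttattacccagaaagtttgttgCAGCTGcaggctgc

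The P2ry13 window held 1 match, to the PU.1 core, starting 48 bases before the start site. The P2ry12 window held 1 match, to the EBF1 core, starting 240 bases before it. The printed P2ry10 window held an AP-1 match 99 bases and an E-box match 14 bases before it. The window of a second P2ry10 start site, not printed, held 1 match, to the PU.1 core, starting 29 bases before that site. No printed window held the FOXO or STAT letters, which says only that those letters are absent from these windows. Among 32851 RefSeq promoter windows of the same length, 23.3% held the PU.1 core, 13% the E-box, 11.8% the EBF1 core, 7.02% the STAT palindrome, 6.75% the AP-1 letters and 3.17% the FOXO core. No motif match overlapped another in the printed windows.

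The array data as a whole bear on every value that follows. Pearson's r between pairs of arrays, taken over all probe sets (which are not replicates of one another), ran from 0.9883 to 0.9970. The Cre-ERT2-labelled array 3 was closest to ERT2 control arrays 3 and 1 (0.9967 and 0.9963), above its values with its own group (0.9938 and 0.9950). The targeted gene was not lower: Inpp5d was 13.19 ± 0.020 (SD, n = 3) in the controls and 13.35 ± 0.013 (SD, n = 3) in Cre-ERT2-labelled arrays, a difference of 0.16 (limma adjusted p = 0.0545), and no label or file used here says whether its probe set covers the floxed exons. Each direction below is therefore that of the library label. B lineage markers were bright, with a mean log2 value over 13 markers of 12.35 to 12.37 in the controls and 12.27 to 12.34 in Cre-ERT2-labelled arrays. Of the 13, Cd22 (-0.51) and Rag2 (-0.50) were called lower and Dntt (0.33) higher. In limma's fit over 14953 genes above a brightness minimum of 7.35, 1140 (7.62%) had a Benjamini-Hochberg adjusted p under 0.05, and these are described as called. Of the genes tested, 523 (3.50%) were called higher and 617 (4.13%) lower, and for 38.5% the groups lay apart, with no value of one inside the range of the other. The median difference over all genes tested was 0.026 on the log2 scale. It moved to -0.077 when arrays were centred on their medians, with 223 genes called higher and 2797 lower, so that 7.38% of the calls were higher in place of 45.88%.

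Among the 10 genes, 3 were called: P2rx3 was higher in Cre-ERT2-labelled arrays, and P2ry13 and P2ry10 were lower. This is 3 of the 9 that passed the brightness minimum, beside 7.62% of all genes tested. In each direction it is 1 higher, beside 3.50%, and 2 lower, beside 4.13%. The groups did not overlap for 6 of the 9, beside 38.5%. Since this comparison entered the choice of the genes, nothing is read from those counts. The median difference of the 9 was -0.065. P2ry14 lay below the minimum, at a mean of 7.29, and was not tested.

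**Figure D1:**
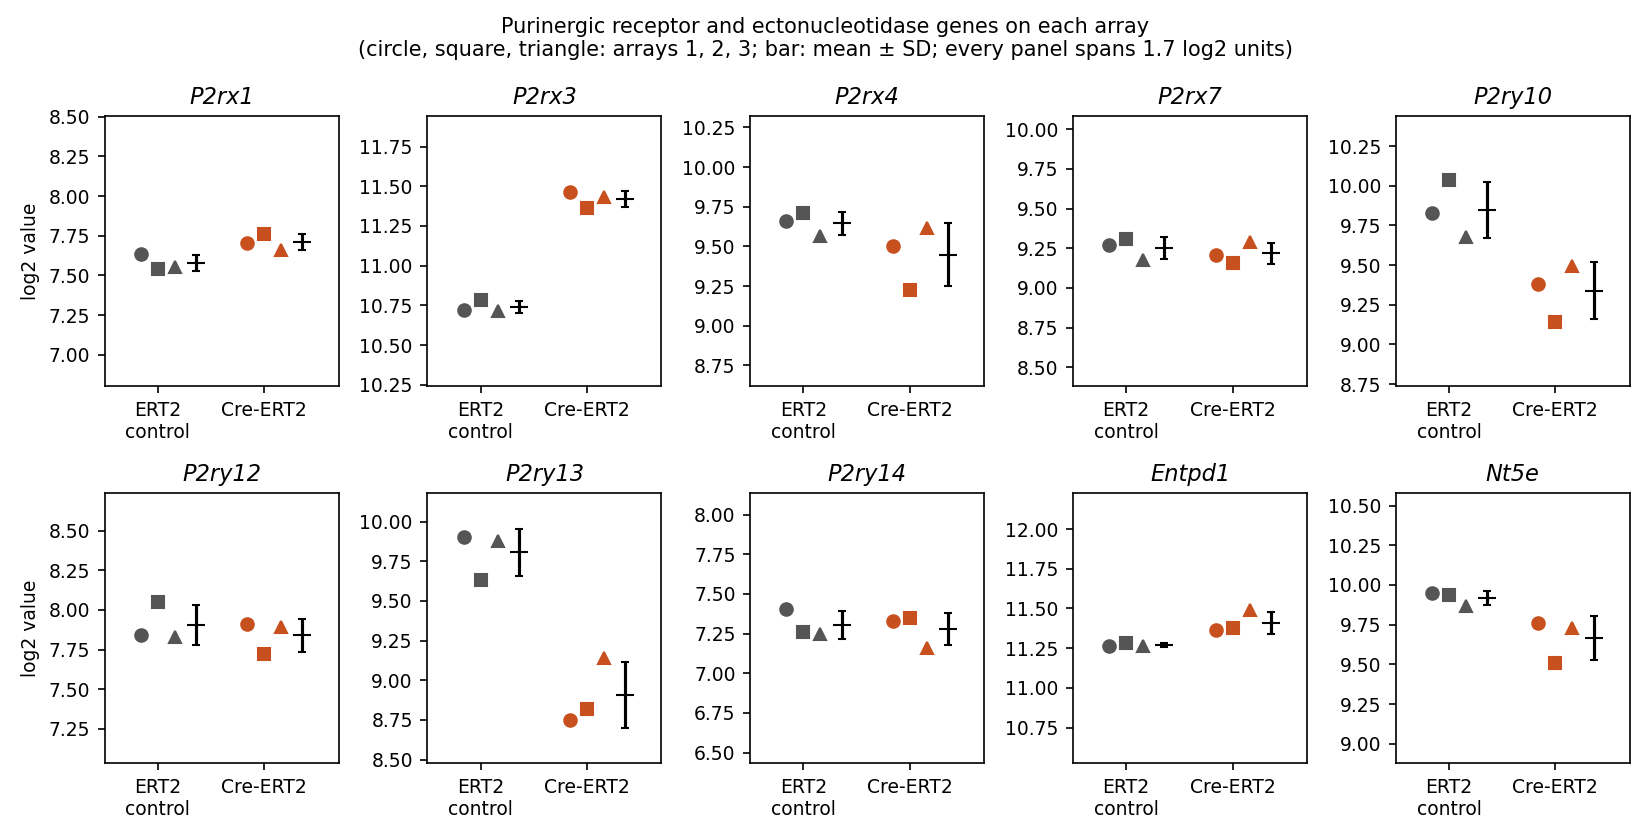
Log2 value of each of the 10 genes on each array, with grey symbols for ERT2 control and orange for Cre-ERT2 arrays, circle, square and triangle for arrays 1, 2 and 3, and the mean ± SD in black. Every panel spans the same log2 range. P2rx3 stands higher on all 3 Cre-ERT2-labelled arrays, P2ry13 and P2ry10 lower, and P2rx4, P2rx7, P2ry12 and P2ry14 overlap.

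The P2X receptor gene that differed most was P2rx3, whose product is best known as the ATP-gated channel of sensory neurons. Its log2 values were 10.72, 10.78 and 10.72 in ERT2 control arrays 1, 2 and 3. They were 11.47, 11.36 and 11.43 in Cre-ERT2-labelled arrays 1, 2 and 3. The groups lay far apart relative to their spread, with SDs of 0.038 and 0.052 (n = 3 each). The log2 difference was 0.68 ± 0.048 (SE; 95% interval 0.57 to 0.79), or 1.60-fold. By size it was the 8th highest of 14953 genes tested.

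A second probe set of P2rx3, with the lower mean, gave the same direction, but at a control mean of 7.60 it was dim. Its log2 values were 7.63, 7.52 and 7.64 in the controls and 8.37, 8.04 and 7.83 in Cre-ERT2-labelled arrays. These groups did not overlap either, but the Cre-ERT2 arrays spread more widely, with an SD of 0.27. The difference was 0.48, with a 95% interval from 0.21 to 0.76, and when all probe sets were tested in place of genes it was not called. The levels of the 2 probe sets cannot be set against each other.

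The other P2X members were not called. P2rx7 encodes the channel that opens at high ATP and is linked to the inflammasome and to cell death. Its log2 values were 9.27, 9.31 and 9.17 in the controls and 9.21, 9.16 and 9.29 in Cre-ERT2-labelled arrays. These values overlapped throughout, and the difference of -0.033 had a 95% interval from -0.16 to 0.095. P2rx4, which lies beside P2rx7 and encodes a channel of endolysosomes and the cell surface, was 9.66, 9.71 and 9.57 in the controls and 9.50, 9.23 and 9.61 in Cre-ERT2-labelled arrays. Array 2 was the lowest, array 1 also lay below the controls, and array 3 lay within the control range. Its difference was -0.20, with a 95% interval from -0.41 to 0.018, and without the Cre-ERT2-labelled array 2 it was -0.088. After centring, which lowered the differences of all genes alike, it was -0.30, and P2rx4 was then called lower.

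P2rx1, whose product is the fast ATP channel of platelets and smooth muscle, was dim. Its log2 values were 7.64, 7.54 and 7.55 in the controls and 7.70, 7.76 and 7.66 in Cre-ERT2-labelled arrays. All 3 Cre-ERT2-labelled arrays lay above the controls by a margin that was narrow, and the difference was 0.13, with a 95% interval from 0.019 to 0.25. Quantile normalization, centring and loess reduced the difference of P2rx1 to 0.028, 0.030 and 0.023.

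**Figure D2:**
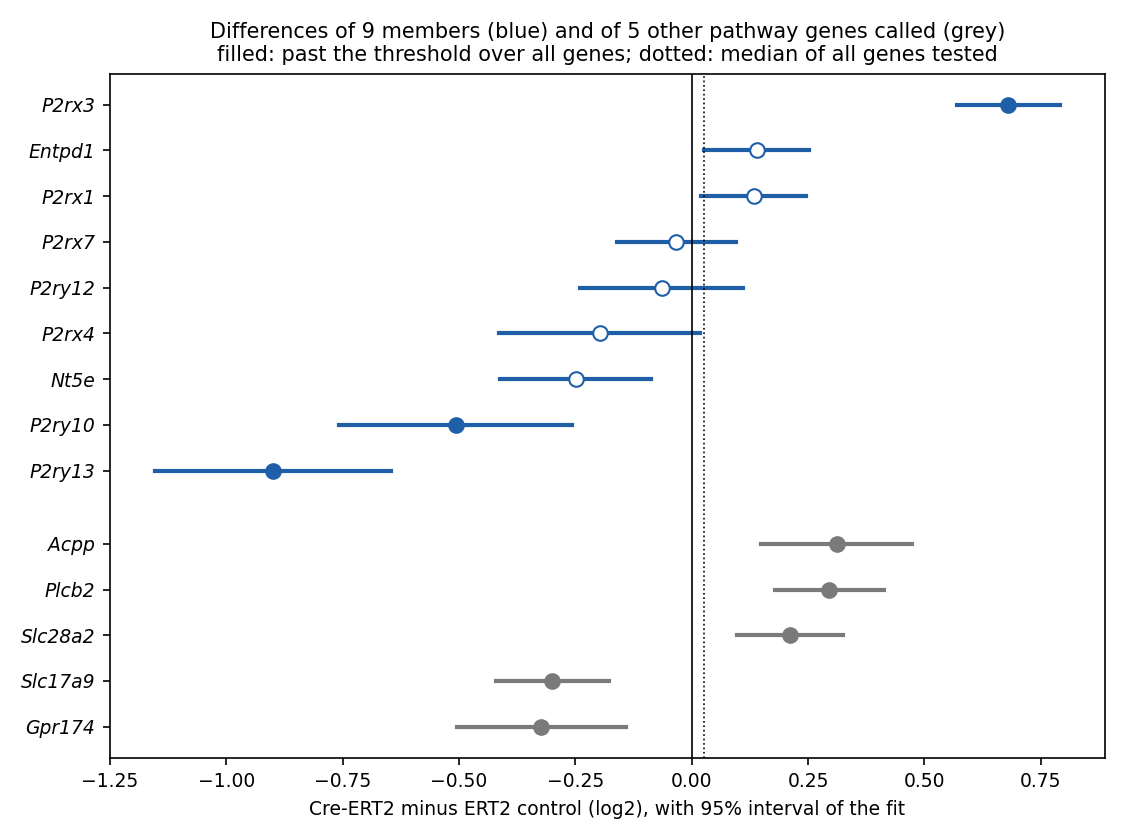
Difference between the groups on the log2 scale, Cre-ERT2 minus ERT2 control, for the 9 genes tested (blue) and for 5 other purinergic genes called (grey), with 95% intervals of the fit and a dotted line at the median of all genes tested, 0.026. P2rx3 lies to the right at 0.68, P2ry13 to the left at -0.90 and P2ry10 at -0.51, and open symbols mark genes that were not called.

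Among the P2Y receptor genes, P2ry13 had the largest difference in size of the 9 genes tested. P2Y13 is an ADP receptor coupled to inhibitory G proteins and found mainly on blood cells. Its log2 values were 9.90, 9.63 and 9.88 in ERT2 control arrays 1, 2 and 3. They were 8.75, 8.82 and 9.14 in Cre-ERT2-labelled arrays 1, 2 and 3. Every Cre-ERT2-labelled array lay below every control, and array 3 stood nearest to them. The difference was -0.90 ± 0.11 (SE), with a 95% interval from -1.15 to -0.65, or 1.87-fold lower. By size it was the 12th lowest of 14953 genes tested. A lower value can come from fewer cells with the transcript or from less RNA per cell, and the 2 cannot be told apart in bulk RNA.

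P2ry12 and P2ry14, which sit beside P2ry13 in a receptor cluster on chromosome 3, overlapped between the groups. P2Y12 is the ADP receptor of platelets and microglia. P2ry12 values were 7.84, 8.05 and 7.83 in the controls and 7.91, 7.72 and 7.89 in Cre-ERT2-labelled arrays. The groups overlapped, and the difference of -0.065 had a 95% interval from -0.24 to 0.11. Without ERT2 control array 2 it was 0.0067. P2ry14 values were 7.41, 7.26 and 7.25 in the controls and 7.33, 7.35 and 7.16 in Cre-ERT2-labelled arrays, a difference of -0.025 between overlapping groups. That level lay under the brightness minimum, so a change of P2ry14 may not be visible on this array.

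The other array genes of the cluster had small differences. Gpr171, another G protein-coupled receptor gene, had a difference of 0.069 ± 0.045 (SE; limma adjusted p = 0.294), and Med12l, a Mediator subunit gene, of -0.040 ± 0.041 (adjusted p = 0.498). Neither was called, although for both genes the values of the groups did not overlap, and the sign of Gpr171 turned after centring. F630111L10Rik, a gene next to P2ry13 of which no role is given here, had a difference of 0.016 that turned sign after quantile normalization, centring and loess, and Igsf10, on the far side of P2ry12, had 0.11 below the brightness minimum. The intervals do not show that these genes were equal between the groups. Whether P2ry13 differed from its neighbours was not tested, and its own difference had been seen before the genes were chosen.

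P2ry10, which encodes a receptor of B and T cells, was lower in Cre-ERT2-labelled arrays. Its log2 values were 9.83, 10.03 and 9.68 in the controls and 9.38, 9.14 and 9.50 in Cre-ERT2-labelled arrays. The groups did not overlap, although each spread by an SD of 0.18. The difference was -0.51 ± 0.11 (SE), with a 95% interval from -0.76 to -0.26, or 1.42-fold lower. P2ry10 was not called when dim genes were kept in the fit.

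The genes next to P2ry10 on the X chromosome were read after the P2ry10 values had been seen. P2ry10b, named as a relative of P2ry10, was 9.87, 9.92 and 9.73 in the controls and 9.50, 9.11 and 9.55 in Cre-ERT2-labelled arrays. Gpr174, a lysophosphatidylserine receptor gene, was 8.85, 8.92 and 8.68 in the controls and 8.59, 8.36 and 8.53 in Cre-ERT2-labelled arrays. In P2ry10, P2ry10b and Gpr174 alike Cre-ERT2-labelled arrays lay below the controls, and the Cre-ERT2-labelled array 2 was the lowest. The difference of P2ry10b was -0.46 ± 0.11 (SE) and that of Gpr174 was -0.32 ± 0.079 (limma adjusted p = 0.0471 for both). The call of P2ry10b ended with control array 1, 2 or 3 left out and with Cre-ERT2-labelled array 1 left out, where its difference was -0.44, -0.42, -0.51 and -0.52. It also ended when dim genes were kept in the fit, when all probe sets were tested and with the replicate number as a block. Whether the probe sets of P2ry10 and P2ry10b share signal was not tested. Beyond Gpr174, Itm2a had -0.21 ± 0.099 (adjusted p = 0.172), with overlapping groups, and on the other side Lpar4 was below the brightness minimum.

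**Figure D3:**
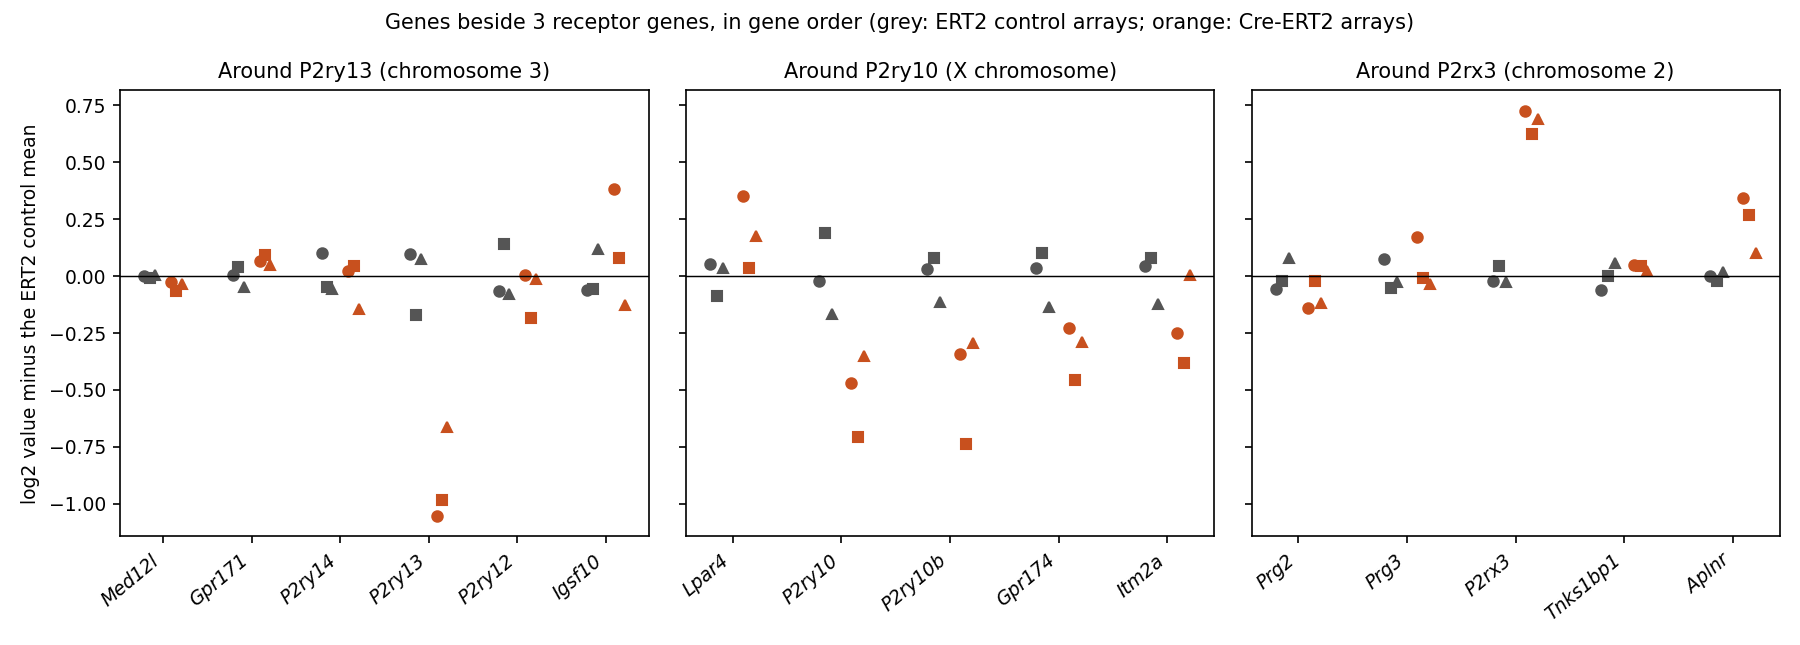
Log2 value minus the ERT2 control mean for array genes in chromosomal order around P2ry13, P2ry10 and P2rx3, with 3 control arrays in grey and 3 Cre-ERT2 arrays in orange for each gene. P2ry13 and P2rx3 lie farther from 0 than the array genes shown beside them. Both had been seen among the larger differences beforehand, so nothing is read from that contrast. P2ry10, P2ry10b and Gpr174 are all lower on Cre-ERT2-labelled arrays.

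For P2rx3, the nearest genes on chromosome 2 that were on the array under 1 symbol had smaller differences. P2rx3 had been seen among the larger differences beforehand, so nothing is read from that contrast. Prg3, an eosinophil granule protein gene, had 0.042 (limma adjusted p = 0.664), and Tnks1bp1, which encodes a tankyrase-binding protein, had 0.037 (adjusted p = 0.584). Both signs turned after quantile normalization, centring and loess. Aplnr, the apelin receptor gene, had 0.24 ± 0.064 (SE; adjusted p = 0.0563) with groups that did not overlap, and it was not called. Prg2 lay below the brightness minimum.

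The 2 ectonucleotidase genes, which act in sequence, pointed in opposite directions, and neither was called. Entpd1 values were 11.26, 11.28 and 11.27 in the controls and 11.36, 11.38 and 11.49 in Cre-ERT2-labelled arrays. All 3 Cre-ERT2-labelled arrays lay above the controls for Entpd1, with a difference of 0.14 and a 95% interval from 0.027 to 0.25. Centring reduced it to 0.037, while quantile normalization and loess each gave 0.17. Nt5e values were 9.95, 9.94 and 9.86 in the controls and 9.76, 9.51 and 9.73 in Cre-ERT2-labelled arrays. For Nt5e all 3 lay below the controls, with a difference of -0.25 and a 95% interval from -0.41 to -0.087. Nt5e was called in 5 of 9 other settings, and its difference was -0.17 without the Cre-ERT2-labelled array 2.

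Individual arrays recurred among these values. The Cre-ERT2-labelled array 2 held the lowest value of its group for 6 of the 10 genes, and ERT2 control array 3 the lowest of its group for 7. The calls of P2rx3 and P2ry13 held with each of the 6 arrays left out. The differences then ranged from 0.66 to 0.71 for P2rx3 and from -1.02 to -0.82 for P2ry13. The call of P2ry10 held with control array 3 or Cre-ERT2-labelled array 3 left out, and it ended when control array 1 or 2, or Cre-ERT2-labelled array 1 or 2, was left out, where its difference was -0.52, -0.41, -0.53 and -0.41. Fits with an array left out have 2 arrays in 1 group and fewer degrees of freedom.

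**Figure D4:**
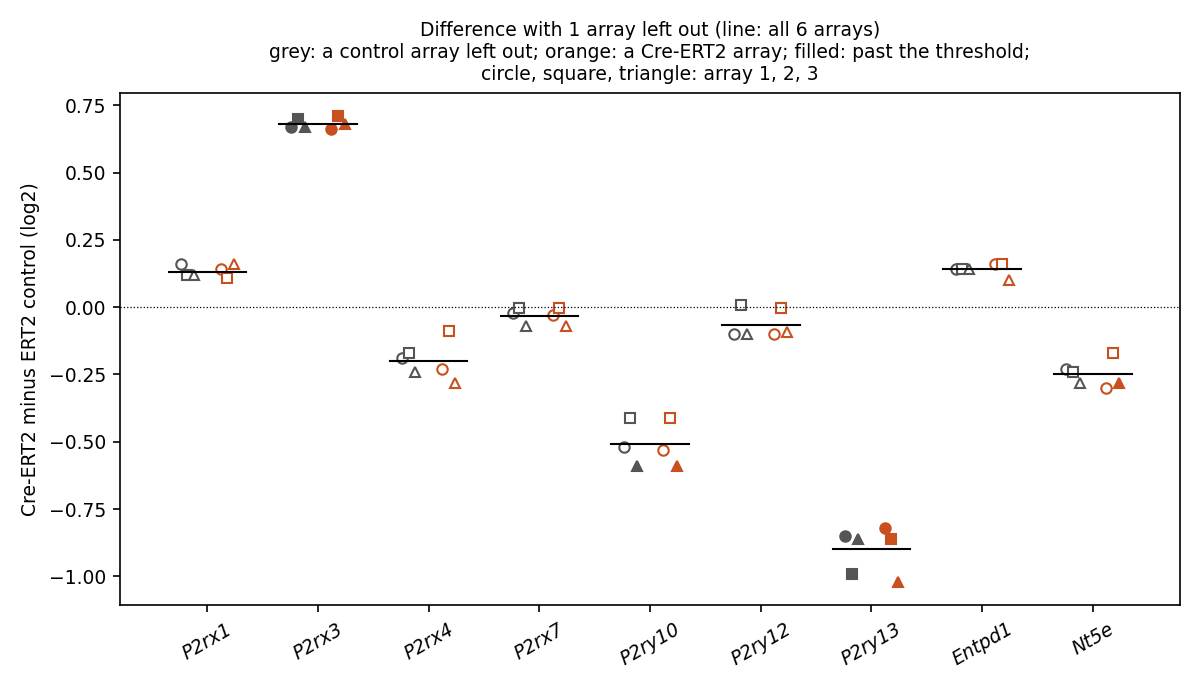
Difference between the groups on the log2 scale for the 9 genes tested, with each array left out in turn (grey for a control array, orange for a Cre-ERT2 array) and a line for all 6 arrays; filled symbols are called. P2rx3 and P2ry13 are called with any array left out and P2ry10 in 2 of 6 fits.

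Other genes of the pathway were read from lists by role. Of 75 genes listed, 66 were on the array under 1 symbol, 58 passed the brightness minimum, 3 were called higher, 2 lower and 53 were not called, with a median difference of 0.045. The 5 calls of 58 stand beside 7.62% called over all genes. At an unadjusted p under 0.05, 19.0% of all genes tested were higher and 14.4% lower, and the counts at that level in each list below stand beside those shares. The 4 adenosine receptor genes are not analysed here. Of 3 other P2X genes (P2rx2, P2rx5 and P2rx6), limma called 0, with 2 higher at an unadjusted p under 0.05. Both are channel subunit genes. P2rx2 had a difference of 0.15 (adjusted p = 0.0969) and P2rx6 of 0.18 (adjusted p = 0.113), both dim genes. Quantile normalization, centring and loess reduced P2rx2 to 0.048, 0.049 and 0.042, and P2rx6 to 0.08, 0.078 and 0.07. Of 6 tested P2Y and related receptors, 0 were called higher, 1 was called lower (Gpr174, given above) and 5 were not called, with 1 higher at an unadjusted p under 0.05. That was Gpr17, which encodes a receptor related to both P2Y and leukotriene receptors, with a difference of 0.23 (adjusted p = 0.124). Quantile normalization, centring and loess each reduced the difference of Gpr17 to 0.13.

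The lists of ectonucleotidases and related enzymes and of adenosine uptake and breakdown gave 1 call each, both higher. Of 11 genes tested in the first list, 1 was called higher and 0 lower, with 4 higher and 1 lower at an unadjusted p under 0.05. That list takes in Entpd4, Entpd5, Entpd6 and Entpd7, and where each enzyme acts in the cell was not examined. The gene called was Acpp, which encodes prostatic acid phosphatase, an enzyme with a membrane form that dephosphorylates AMP. Acpp values were 9.26, 9.35 and 9.31 in the controls and 9.75, 9.48 and 9.63 in Cre-ERT2-labelled arrays, without overlap. Its difference was 0.31 ± 0.071 (SE; limma adjusted p = 0.0394). The gene with an unadjusted p under 0.05 in the downward direction, Entpd6, which encodes a nucleoside diphosphatase, had -0.21 ± 0.061 (adjusted p = 0.0656). Of 9 genes of adenosine uptake and breakdown, 1 was called higher and 0 lower, with 2 higher and 1 lower at an unadjusted p under 0.05. Slc28a2, a concentrative nucleoside transporter gene, was 10.05, 10.08 and 10.06 in the controls and 10.35, 10.23 and 10.24 in Cre-ERT2-labelled arrays. Its difference was 0.21 ± 0.050 (adjusted p = 0.0426). Adk, the adenosine kinase gene, had -0.19 ± 0.063 (adjusted p = 0.0880) and was not called.

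Of 7 nucleotide release genes, 0 were called higher and 1 lower, with 1 higher at an unadjusted p under 0.05 in limma's fit. Slc17a9, which encodes the transporter that loads ATP into vesicles, was 10.56, 10.52 and 10.55 in the controls and 10.27, 10.15 and 10.31 in Cre-ERT2-labelled arrays. The groups were well separated, and the difference of Slc17a9 was -0.30 ± 0.053 (SE; adjusted p = 0.0207). The pannexin gene Panx2 had 0.22 (adjusted p = 0.124) and was not called. Of 6 tested inflammasome partners of P2X7, limma called 0, with 1 at an unadjusted p under 0.05, Casp4 (0.15, adjusted p = 0.0763). Pycard, the inflammasome adaptor gene, had 0.13 (adjusted p = 0.258). After quantile normalization, centring and loess, Casp4 had 0.037, 0.045 and 0.042, and Pycard 0.031, 0.024 and 0.051.

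Of 16 G proteins and effectors of P2Y receptors, 1 was called higher, Plcb2, and 0 lower, with 3 higher and 0 lower at an unadjusted p under 0.05 in limma's fit. Plcb2 encodes a phospholipase C that is driven by G protein subunits in blood cells. Its values were 10.76, 10.83 and 10.69 in the controls and 11.09, 11.03 and 11.05 in Cre-ERT2-labelled arrays, a difference of 0.30 ± 0.051 (SE; adjusted p = 0.0199). The related Plcb3 had 0.13 ± 0.043 (adjusted p = 0.0910). All 5 pathway calls ended without ERT2 control array 1, without ERT2 control array 3 and without the Cre-ERT2-labelled array 1. Without ERT2 control array 2, Plcb2 alone of the 5 was called, and Slc28a2 and Gpr174 also ended without the Cre-ERT2-labelled array 2. Over the 6 such fits the adjusted p ranged from 0.0226 to 0.102 for Plcb2, 0.0166 to 0.108 for Slc17a9, 0.0165 to 0.158 for Acpp, 0.0332 to 0.167 for Slc28a2 and 0.0410 to 0.169 for Gpr174. After centring, Acpp, Slc28a2 and Plcb2 were not called, and with dim genes kept in the fit Acpp, Slc28a2 and Gpr174 were not. Gpr174 was also not called when all probe sets were tested.

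P2ry12, P2ry13 and P2rx7 are also known from myeloid cells, so markers of other cell types were read beside them. Of 15 myeloid markers, 9 lay below the brightness minimum, among them the defining genes Csf1r, Itgam and Adgre1. Lyz2 and Cebpe were called higher in Cre-ERT2-labelled arrays, by 0.79 and 0.21, and 0 were called lower by limma (0 at an unadjusted p under 0.05). The mean log2 value of the 15 markers was 7.44 to 7.48 in the controls and 7.54 to 7.64 in Cre-ERT2-labelled arrays, while the median of all probe sets was 8.19 to 8.23 and 8.24 to 8.37. Of 12 T and NK cell markers, 5 lay below the minimum, among them Cd3d and Cd3g, and Cd2, which mouse B cells also express, was called lower (difference -0.64). Of the 7 tested, limma called 0 higher, with 4 higher and 1 lower at an unadjusted p under 0.05. The mean log2 value of that list was 7.64 to 7.69 in the controls and 7.66 to 7.77 in Cre-ERT2-labelled arrays. Of 9 erythroid and megakaryocyte, 8 dendritic and 9 stromal markers on the array, 6 in each list passed the minimum. Of those tested limma called 0, with 1, 0 and 3 higher at an unadjusted p under 0.05. Mean log2 values of the whole lists were 7.48 to 7.53, 7.67 to 7.74 and 7.66 to 7.73 in the controls. They were 7.52 to 7.66, 7.70 to 7.80 and 7.76 to 7.92 in Cre-ERT2-labelled arrays. The part of any of these cell types in the purinergic values was not tested.

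The genes whose pattern over the 6 arrays was most like that of P2rx3 were Slc25a1, Arel1 and Fbxl15, with Pearson's r of 0.9986, 0.9980 and 0.9979. For P2ry13 they were Grpel1, Krr1 and Fdps, with r of 0.9978, 0.9961 and 0.9959. These are descriptions over 6 arrays in 2 groups, and 292 genes had r above 0.95 with P2rx3 and 400 with P2ry13. Likeness here is of shape and not of size: Slc25a1 differed by 0.15 between the groups, against 0.68 for P2rx3, and Grpel1 by -0.14, against -0.90 for P2ry13.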

How the data were processed

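RNA was measured on 6 mouse Affymetrix arrays, 3 per group, grouped and numbered by the sample titles. The authors deposited 1 log2 value per array for each of 35556 probe sets. The submitters' processing notes list RMA and Partek 6.5, with neither role nor settings, and no source used here states a genome build. Probe sets with exactly 1 gene symbol (21789) were reduced to 19938 genes by the highest mean over all arrays; 1621 had several symbols and 12146 none in the annotation table. Identifiers of all 11 probe sets of the 10 genes matched RefSeq with the same symbol. Genes with a mean below the 25th percentile (7.35) were left out. Groups were compared across all genes with limma 3.58.1 in R 4.3.3 (lmFit, eBayes, two-sided, Benjamini-Hochberg, threshold 0.05), as Cre-ERT2 minus ERT2 control, without covariates. Standard errors and 95% intervals are those of the moderated fit. Precision is limited by the number of arrays, 3 in each group. The code was tested on simulated data.

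The 10 genes, the lists and the tests were chosen with earlier results of these data known. Named genes were the 10, Inpp5d, called genes of each pathway list (the smallest p up to 2 where fewer passed), 2 array genes on each side of P2ry13 and P2rx3, and the 3 genes most like each. The genes beside P2ry10, the rest of the P2ry13 cluster and the marker genes given were added after values were seen. Alternatives varied the filter, probe sets, scaling, model, block and arrays. Tables and figures were made with Python 3.11.15, pandas 2.3.3 and matplotlib 3.10.9.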

Additional observations from a re-analysis of the deposited data

How the results depend on the processing

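P2rx3 and P2ry13 were called in the same direction in all 15 alternatives run, with differences from 0.58 to 0.71 and from -1.02 to -0.82. Both had been chosen from this comparison, so calls that held are not independent support. P2ry10 kept its direction in all 15 and was not called without the filter on dim genes, with the replicate number as a block and in 4 fits with an array left out. The count of members called higher was 1 in every alternative. The count called lower was 2, and it was 1 without the filter, 4 after centring (with Nt5e and P2rx4), 1 with the replicate block, 3 (with Nt5e) with a filter at the 50th percentile, quantile normalization, loess, and trend and robust estimation, and 1 to 3 with an array left out. For all genes, the 1140 calls became 437 without the filter, 3020 after centring, 2147 with trend and robust estimation, 147 with the replicate block and 116 to 3042 with an array left out (116, 194 and 347 without control array 1, 2 and 3; 136, 525 and 3042 without Cre-ERT2-labelled array 1, 2 and 3). For other pathway genes, the 3 calls higher became 1 without the filter, 0 after centring (2 at an unadjusted p under 0.05 in limma's fit), 0 with the replicate block (7 at an unadjusted p under 0.05) and 0 to 6 with an array left out. The 2 calls lower became 1 without the filter, 1 with all probe sets, 6 after centring, 4 with trend and robust estimation, 0 with the replicate block (4 at an unadjusted p under 0.05) and 0 to 4 with an array left out. Signs of small differences turned for some neighbours after quantile normalization, centring and loess: F630111L10Rik (-0.090, -0.086 and -0.094), Prg3 (-0.061, -0.060 and -0.061) and Tnks1bp1 (-0.067, -0.065 and -0.051), and Gpr171 after centring (-0.033). With an array left out, F630111L10Rik ranged from -0.064 to 0.075 and Prg3 from -0.022 to 0.081. Centring moves all genes of an array by the same amount. Array medians were 8.19 to 8.23 in the controls and 8.24 to 8.37 in Cre-ERT2-labelled arrays, so centring lowered every difference alike. The cause of the other changes was not tested, nor was that of the unequal medians. Whether replicate numbers pair the arrays was not settled. Deviations from the group means correlated at 0.161, 0.024 and -0.199 for same-numbered arrays 1, 2 and 3. Not every array correlated best with its own number. With 3 arrays in each group such deviations sum to 0, so these values cannot exclude pairing. Probe sets with equal values numbered 30, 10 and 24 in same-numbered arrays 1, 2 and 3, and 6 to 17 in the other pairs. Signal near background limits P2ry14, P2rx1, P2ry12 and the dimmer probe set of P2rx3.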
